A study of Mus musculus with 10 samples.

Results

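Cyclic nucleotide-gated (CNG) channels are cation channels that open when cGMP or cAMP binds to them from inside the cell. The mouse genes asked for were Cnga1, Cnga2, Cnga3, Cnga4, Cngb1 and Cngb3, 6 genes in all. Members were the probes that carried one of these symbols, and no other, in the platform annotation. That gave 5 probes for 5 genes, of 33012 probes and 13840 named genes in the table. Cnga4, a modulatory subunit of the olfactory channel, had no probe under this rule and was not analysed here.

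RNA was measured on single-channel Applied Biosystems arrays, 5 with retina RNA and 5 with cortex RNA. The retina came from adult C57/B6 mice, 350 of them in 1 pool, at an age in days that the labels leave out; the retina titles also hold the letters P1, which are not explained. The cortex came from 19 mice at postnatal day 1 in 1 pool, described as C57/B6 with the samples and as Swiss-Webster in the series text. The arrays of a tissue are repeats of 1 pool, so every p-value below measures the spread between arrays and not between animals. Tissue goes with age, and possibly with strain, and these cannot be told apart. In bulk RNA, fewer cells of a type and less RNA per cell cannot be told apart either.

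In the dark, cGMP holds the channel of rod and cone outer segments open, and sodium and calcium flow in. Light activates transducin and a phosphodiesterase that breaks cGMP down, the channels close and the cell hyperpolarizes. The rod channel is built from Cnga1 and Cngb1 subunits and the cone channel from Cnga3 and Cngb3. Olfactory sensory neurons use a cAMP-driven channel of Cnga2, Cnga4 and a form of Cngb1.

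The tissue labels were checked on marker genes. Both measured rod markers (Gnat1 and Nrl, of 5 listed) and all 5 cone markers were higher in retina, and both measured cortical neuron markers (Neurod6 and Tbr1, of 5) were lower. Before normalization the median intensity was 836 to 987 on retina arrays and 1255 to 1341 on cortex arrays. Array medians spanned 0.682 log2 units, so the arrays were quantile-normalized, and log2 values below are on that scale. Some markers of adjoining eye tissues, but not all, were called higher in retina too. Of 4 pigment epithelium markers 3 were called higher, and Best1 (-0.14) was not called. Their summed log2 values were 48.03 to 49.79 on retina arrays and 31.76 to 34.34 on cortex arrays. Of 3 lens markers only Cryaa (6.71) was called higher, while Mip (0.03) and Bfsp1 (-0.58) were not called. The lens sums were 32.23 to 36.06 on retina arrays and 26.12 to 28.71 on cortex arrays. They follow Cryaa and do not show a rise shared by the 3 lens markers. Of 3 ependyma and choroid plexus markers, Foxj1 (-1.29) and Ttr (-1.38) were called lower in retina. Kl (1.01) was called higher, but its means of 10.19 in retina and 9.18 in cortex were below the olfactory receptor level described below. It lost its call without normalization (0.48), and without retina replicate 2 (0.99), retina replicate 5 (0.89) or cortex replicate 3 (0.86), among other settings. The part of such other cells in the results was not tested.

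Promoter sequences are shown for the rod channel genes, whose transcripts were both called higher in retina. Cnga3 was called higher too, but its 2 windows, which hold no match to the letters marked below, are not printed. Each window runs from 250 bases before to 50 bases after the annotated transcript start, 5′ to 3′ on the gene's strand, from RefSeq on GRCm38.p6. Capitals mark matches to TAATCC, the core that the photoreceptor homeobox factor Crx is known to bind.
Cnga1, chr5:72642703-72643002, minus strand: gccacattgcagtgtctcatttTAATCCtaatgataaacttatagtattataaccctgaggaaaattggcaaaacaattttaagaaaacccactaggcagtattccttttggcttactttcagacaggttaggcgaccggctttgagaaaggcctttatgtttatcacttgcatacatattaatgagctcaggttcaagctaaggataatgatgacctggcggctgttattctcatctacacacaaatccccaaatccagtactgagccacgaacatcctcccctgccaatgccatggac
Cngb1, chr8:95306536-95306835, minus strand: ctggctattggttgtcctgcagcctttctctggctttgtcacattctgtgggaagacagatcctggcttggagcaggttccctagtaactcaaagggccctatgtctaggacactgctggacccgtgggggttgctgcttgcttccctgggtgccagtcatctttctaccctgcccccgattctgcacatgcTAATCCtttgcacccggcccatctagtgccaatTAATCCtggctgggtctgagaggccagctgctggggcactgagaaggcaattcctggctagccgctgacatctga

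Searched on both strands, TAATCC stood once in the Cnga1 window, 228 to 223 bases before the start. It stood at 2 places in the Cngb1 window, 58 to 53 and 25 to 20 bases before the start, and all 3 matches read along the strand of the gene. Of all 32851 promoter windows of this length, 7.06% held at least 1 match. The letters TGCTGA, part of the site of the rod factor Nrl, were found in 19.5% of all windows; among the channel genes they stood only in the Cnga2 window, on the opposite strand. Neither of the 2 windows of Cnga3 held either motif, and Cngb3 had no window to search. The matches do not overlap one another. A match is a description of letters and not of binding.

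**Figure D1:**
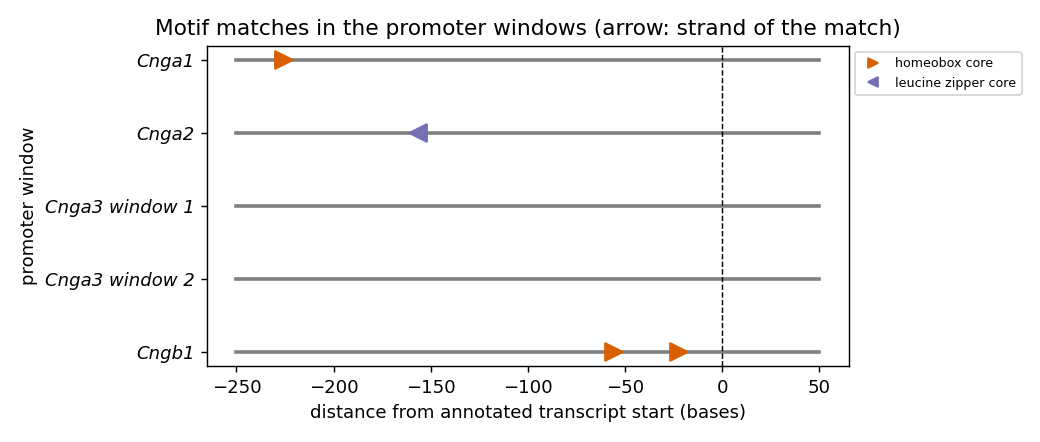
Positions of motif matches (arrows, pointing along the matched strand) in the promoter windows of 4 channel genes; the x axis is the distance in bases from the annotated transcript start and each grey line is 1 window. TAATCC (homeobox core) lies 58 to 53 and 25 to 20 bases before the start of Cngb1 and 228 to 223 bases before that of Cnga1, and the 2 Cnga3 windows are empty.

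The comparison of retina with cortex asks how far the channel transcripts differ between a tissue with photoreceptors and one without. A call required an adjusted p under 0.05 (limma, Benjamini-Hochberg over all 33012 probes) together with a difference of 2-fold or more. All 4 subunits of the rod and cone channels were called higher in retina, and the olfactory subunit Cnga2 was not called. Over all probes 12.1% were called higher in retina and 13.3% lower. The median difference of the 5 channel probes was 5.60 log2 units, beside -0.01 over all probes.

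Cnga1 encodes the rod subunit that can form a cGMP-gated pore by itself. Its probe (499524) had deposited intensities of 248236, 263593, 235034, 285374 and 283793 on retina arrays 1 to 5, against 239, 184, 250, 254 and 219 on cortex arrays 1 to 5. The lowest retina array was far above the highest cortex array, and on the log2 scale the 2 tissues were 10.25 apart at their nearest. It averaged 18.29 ± 0.10 log2 units over the retina arrays and 7.67 ± 0.17 over the cortex arrays (SD, n = 5 each). The difference was 10.62 (SE 0.0843, 95% interval 10.44 to 10.80, limma adjusted p = 5.68e-21).

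Cngb1 encodes the beta subunit of the rod channel, and the same gene yields the soluble glutamic acid-rich proteins of rods. Its probe (450649) had intensities of 790479, 823748, 762817, 846464 and 780971 on the retina arrays, against 1077, 448, 373, 1441 and 1009 on the cortex arrays. The retina arrays lay within 0.12 log2 units of each other, whereas the cortex arrays ranged over 1.97, with arrays 2 and 3 low and array 4 high. It averaged 19.88 ± 0.05 log2 units over the retina arrays and 9.33 ± 0.83 over the cortex arrays (SD, n = 5 each). The difference was 10.55 (SE 0.268, 95% interval 9.98 to 11.12, limma adjusted p = 2.85e-15). RefSeq lists 3 transcripts of Cngb1, and which of them the probe reads is not given in the sources used here.

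Cngb3 encodes the beta subunit of the cone channel. Its probe (498622) had intensities of 10073, 10988, 11516, 12219 and 11924 on the retina arrays, against 262, 283, 524, 216 and 290 on the cortex arrays. The tissues did not overlap, and cortex array 3 was the highest of its tissue. It averaged 13.66 ± 0.03 log2 units over the retina arrays and 8.06 ± 0.43 over the cortex arrays (SD, n = 5 each), a difference of 5.60 (SE 0.192, 95% interval 5.19 to 6.01, limma adjusted p = 1.43e-13). Of all probes, 0.448% had a larger difference toward retina. Its spread over the retina arrays was smaller than in all but 0.364% of probes of similar retina brightness (the same decile), where the median SD was 0.10.

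Cnga3 encodes the cone subunit that forms the pore. Its probe (484662) had intensities of 2678, 2329, 2566, 2795 and 2626 on the retina arrays, against 196, 240, 343, 193 and 371 on the cortex arrays. All retina arrays were above all cortex arrays, and 3.16 log2 units separated the nearest of them. It averaged 11.57 ± 0.11 log2 units over the retina arrays and 7.84 ± 0.40 over the cortex arrays (SD, n = 5 each). The difference was 3.73 (SE 0.259, 95% interval 3.18 to 4.28, limma adjusted p = 1.59e-09).

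Cnga2 encodes the main subunit of the olfactory channel. Its probe (497466) had intensities of 250, 95.3, 171, 517 and 303 on the retina arrays, against 730, 719, 1194, 200 and 458 on the cortex arrays. The tissues overlapped: by these intensities retina array 4 was brighter than cortex arrays 4 and 5. It averaged 8.04 ± 0.83 log2 units over the retina arrays and 8.91 ± 0.89 over the cortex arrays (SD, n = 5 each). The difference of -0.88 (SE 0.477, 95% interval -1.89 to 0.14) did not pass the threshold (limma adjusted p = 0.154). It did pass without cortex replicate 4 (-1.20, limma adjusted p = 0.0401) and without normalization (-1.30, adjusted p = 0.0372), where the median of all probes was itself at -0.41 and 23.1% of them were called lower.

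**Figure D2:**
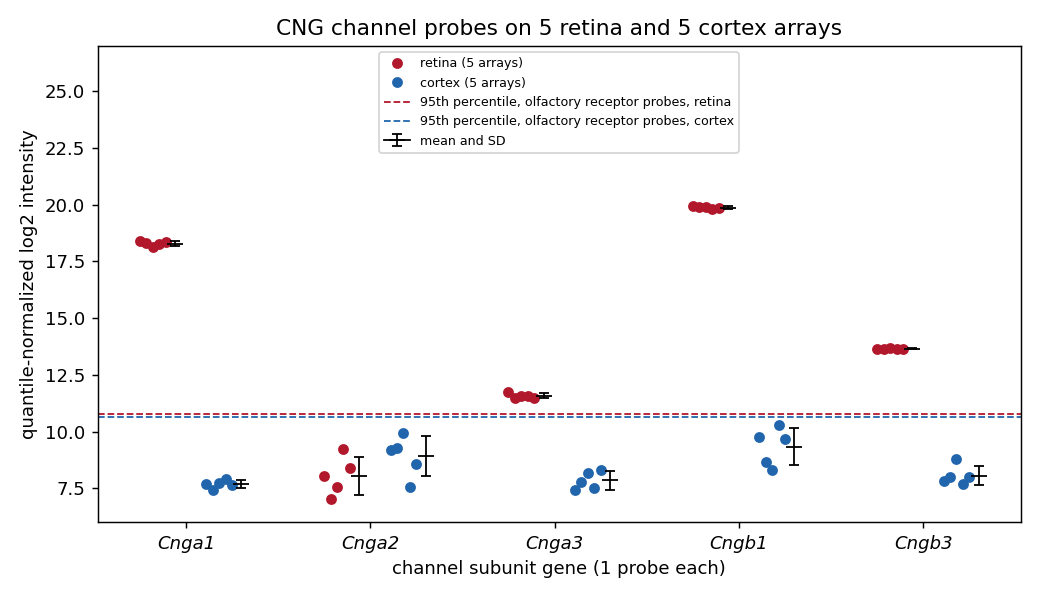
Quantile-normalized log2 intensity (y axis) of the 5 channel probes (x axis) on each of 5 retina arrays (red) and 5 cortex arrays (blue), with mean and SD in black; dashed lines are the 95th percentiles of the olfactory receptor probes, 10.77 in retina and 10.65 in cortex. The retina points of Cnga1, Cnga3, Cngb1 and Cngb3 are above the line and all 25 cortex points are below it, as are the 5 retina points of Cnga2.

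The table carries no detection flag, so dim signal was set against 747 probes named for olfactory receptors, most of which neither tissue is known to use. The 95th percentile of their tissue means was 10.77 in retina and 10.65 in cortex. In retina the 5 arrays of Cnga1, Cngb1, Cngb3 and Cnga3 were all above this level, Cnga3 by the least. In cortex no array of any of the 5 channel probes was above it. Their cortex means were brighter than those of 84.5% (Cngb1), 76.8% (Cnga2), 36.9% (Cngb3), 25.2% (Cnga3) and 15.7% (Cnga1) of the olfactory receptor probes. No cortex level of a channel gene was therefore shown to lie above background, and for Cnga2 the same holds in retina. With each dim value raised to the array's own 95th percentile, the differences were 9.05 for Cngb1, 7.46 for Cnga1, 2.83 for Cngb3 and 0.75 for Cnga3. The value for Cnga3 was then under the 2-fold minimum.

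**Figure D3:**
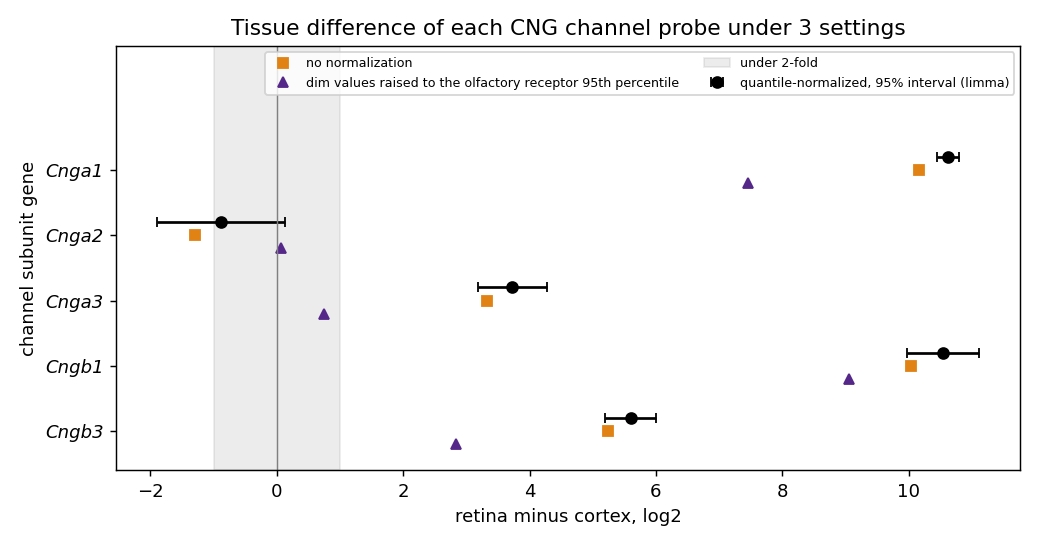
Retina minus cortex difference in log2 units (x axis) of each channel gene (y axis), with the 95% limma interval for the quantile-normalized values (black), without normalization (orange) and with dim values raised to the olfactory receptor 95th percentile (purple); the grey band is under 2-fold. Raising the dim values moves Cnga3 into the band (0.75) and leaves Cnga1 at 7.46 and Cngb1 at 9.05. Every Cnga2 value is raised, so its 0.07 is the difference of the raised levels alone.

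The log2 ratio of 2 probes within each array was compared between the tissues in all 10 pairs. In 9 pairs the ratios of the retina and cortex arrays did not overlap (exact 2-sided permutation p = 0.00794, Benjamini-Hochberg adjusted p = 0.00882 over the pairs). That p is the smallest that reassigning the 10 arrays can give. Of all single probes, 40.5% did not overlap between the tissues, and the share over all pairs of probes was not computed. All cortex values here were dim. A change of a ratio follows how bright each probe is in retina and the dim level at which it lies in cortex. Both also depend on the probe, so a change, or its absence, does not show whether one transcript differs more between the tissues. The log2 ratio of Cnga1 to the cone pore subunit Cnga3 was 6.71 ± 0.13 on retina arrays and -0.17 ± 0.47 on cortex arrays, and that of Cngb1 to Cngb3 was 6.22 ± 0.05 on retina arrays and 1.27 ± 1.21 on cortex arrays (SD, n = 5 each). Within the cone channel, Cnga3 minus Cngb3 was -2.08 ± 0.12 on retina arrays and -0.22 ± 0.34 on cortex arrays (SD, n = 5 each), a change of -1.87. Within the rod channel, Cnga1 minus Cngb1 was -1.59 ± 0.11 on retina arrays and -1.65 ± 0.74 on cortex arrays (SD, n = 5 each), and the change of 0.07 did not pass (exact permutation p = 0.849). Leaving out single arrays moved that change between -0.12 and 0.33. With the dim values raised, the rod change became -1.59 (exact permutation, adjusted p = 0.00794).

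The genes of most similar pattern over the 10 arrays were found by the root mean square distance between log2 values, each probe centred on its own mean. For Cnga1 they were Rbp3, which carries retinoids between photoreceptors and pigment epithelium (0.274 log2 units), Kcnv2, a modulatory potassium channel subunit of photoreceptors (0.319), and Tulp1, a photoreceptor trafficking protein (0.402). The median distance of named probes to Cnga1 was 5.33. For Cngb1 they were Rbp3 (0.385), Cnga1 (0.473) and Tulp1 (0.474). The cone subunits were nearest to other genes. For Cnga3 they were Mbnl2, a splicing regulator (0.212), Slc31a2, a copper transporter gene (0.217), and Gem, a small GTPase gene (0.223). For Cngb3 they were the lens crystallin gene Crygb (0.256), Laptm4b (0.257) and Plk5 (0.257). With 2 tissues, this distance reads mainly the size of the tissue difference.

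Proteins that bind the channel or share its membrane were divided. Of 7 measured genes of 8 listed, 3 were called higher in retina, 1 lower and 3 were not called (median difference -0.44), where 12.1% of all probes were called higher and 13.3% lower. Slc24a1, the sodium, calcium and potassium exchanger that removes the calcium entering through the rod channel, was at 17.45, 17.18, 17.43, 17.48 and 17.40 log2 units on the retina arrays, against 9.25, 9.36, 9.41, 9.25 and 8.75 on the cortex arrays. The tissues were far apart, by 8.19 in the mean (SE 0.106, limma adjusted p = 1.05e-18). The disc rim genes Prph2 and Rom1, whose products bind the glutamic acid-rich part of Cngb1, were higher by 10.84 (SE 0.305) and 9.23 (SE 0.0721). With the dim values raised Slc24a1 was at 6.56 and Prph2 at 9.28. An exchanger gene of cones, Slc24a2, averaged 9.16 ± 0.90 over retina arrays and 9.59 ± 0.27 over cortex arrays (SD, n = 5 each), dim in both and not called. Slc24a4, of the same exchanger family, was counted in the olfactory list below. It was called higher (2.21, or 0.46 with the dim values raised). Grb14, an adapter reported to bind Cnga1, was called lower, with 12.06 ± 0.13 over retina arrays and 13.91 ± 0.06 over cortex arrays (SD, n = 5 each), with no overlap of arrays and a difference of -1.86 (SE 0.0723, limma adjusted p = 7.68e-13). The calmodulin genes Calm2 and Calm3, whose product lowers the channel's sensitivity to cGMP or cAMP, had differences of -0.63 and -0.55, under 2-fold. Without normalization they were at -1.21 and -1.10, so that 3 partners were called lower. In that setting 23.1% of all probes were called lower, and the median difference of all probes was -0.41. A further Calm2 probe (904497) was at -1.13 and called lower with quantile normalization.

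All 15 measured genes, of 19 listed, of the cascade that sets the cGMP level were called higher in retina, with a median of 8.52, beside 12.1% of all probes called higher. Among those with large differences were the rod transducin gamma gene Gngt1 (11.19), the cyclase activator gene Guca1a (11.03), the phosphodiesterase gene Pde6b (10.80) and the transducin alpha gene Gnat1 (9.66). The cortex values of Gngt1, Guca1a and Pde6b were dim, and with the dim values raised these differences were 10.23, 9.41, 8.14 and 9.55. The median is the value of Guca1b, a cyclase activator gene whose retina arrays had 19.18, 13.71, 12.68, 19.15 and 19.10 log2 units, with arrays 2 and 3 low, against 7.25 to 9.97 on the cortex arrays. Gnb3, the cone transducin beta gene, was dim in both tissues with overlapping arrays (9.86 ± 0.72 in retina, 8.51 ± 0.22 in cortex; SD, n = 5 each). It was at 0.93 without normalization, where 14 genes of the list and 2474 of all 33012 probes were called higher. With the dim values raised, 12 genes of the list and 2383 of all probes were called higher. The guanylate cyclase genes Gucy2e (2.62) and Gucy2f (3.07), which make the channel's ligand, were among the smaller. Their retina means of 10.54 and 10.67 were below the olfactory receptor level. With the dim values raised, every value of both genes was replaced. The 0.07 found there is the difference of the raised levels alone and does not measure these genes.

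The transduction genes that surround the olfactory channel were divided too. Of 11 measured genes of 12 listed, 5 were called higher in retina and 6 were not called (median difference 0.82), again beside 12.1% of all probes called higher. Omp (olfactory marker protein), Gnal (the olfactory G protein alpha subunit) and Adcy3 (the olfactory adenylyl cyclase) were dim in both tissues and not called. Their differences were 0.59, -0.69 and -0.22. Without normalization Gnal was called lower (-1.08), as were 23.1% of all probes. Rtp1 (0.82) and Rtp2 (0.39), chaperones of odorant receptors, were likewise dim, and Pde4a (0.57) was also not called. The 5 called were Gng13, Ano2, Ric8b, Slc24a4 and Pde1c. Gng13, a G protein gamma subunit also known from ON bipolar cells, averaged 17.43 ± 0.12 over retina arrays and 11.46 ± 0.04 over cortex arrays (SD, n = 5 each; difference 5.96, SE 0.0573). Ano2, a calcium-activated chloride channel also known from photoreceptor terminals, averaged 12.89 ± 0.10 over retina arrays and 7.49 ± 0.19 over cortex arrays (SD, n = 5 each; difference 5.40, SE 0.197). Ric8b (2.53), Slc24a4 (2.21) and Pde1c (1.30) were also higher. Without normalization Pde1c was at 0.80. With the dim values raised Ano2 was at 2.06, Slc24a4 at 0.46 and Pde1c at 0.74.

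Other channels of the photoreceptor membrane were measured for 3 of 6 listed genes, and all 3 were called higher in retina, as were 12.1% of all probes. Kcnv2 averaged 18.24 ± 0.10 over retina arrays and 7.64 ± 0.59 over cortex arrays (SD, n = 5 each), a difference of 10.60 (SE 0.199). Kcnj14, an inward rectifier potassium channel gene, differed by 9.45 (SE 0.128), and Cacna1f, the calcium channel of photoreceptor terminals, by 2.26 (SE 0.181). Their cortex values were dim, and with the dim values raised Kcnv2 was at 7.41, Kcnj14 at 6.78 and Cacna1f at 1.33. HCN channels, which share the cyclic nucleotide-binding fold and open on hyperpolarization, had 2 measured genes of 4 listed. Hcn2 averaged 11.65 ± 0.19 over retina arrays and 11.59 ± 0.15 over cortex arrays, and Hcn3 11.60 ± 0.12 over retina arrays and 12.47 ± 0.05 over cortex arrays (SD, n = 5 each). Neither was called, with differences of 0.05 (SE 0.120) and -0.86 (SE 0.0877). The 5 Hcn3 arrays of each tissue did not overlap, as was true of 40.5% of all probes. Without normalization Hcn3 was called lower (-1.29), as were 23.1% of all probes. It was also called lower when tested against a 1.5-fold difference in place of the 2-fold minimum, as were 4308 of 33012 probes.

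**Figure D4:**
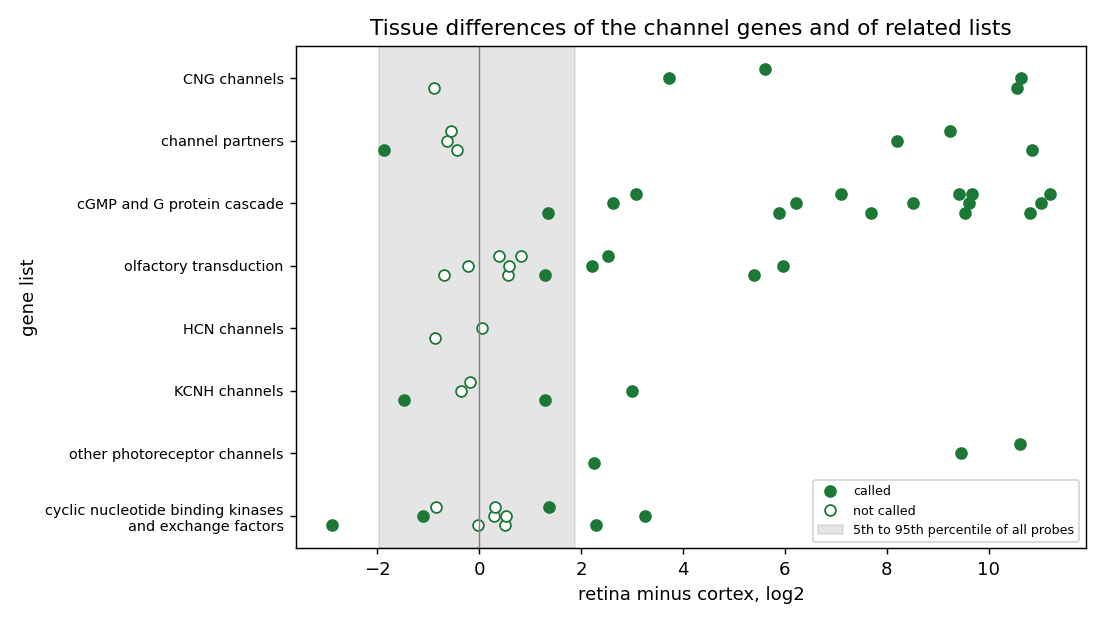
Retina minus cortex difference in log2 units (x axis) of each measured gene in the channel family and in 7 related lists (y axis); filled points were called, open points were not, and the grey band spans the 5th to 95th percentile of all probes (-1.97 to 1.89). Of the 5 channel genes 4 lie right of the band, as do 14 of the 15 cascade genes, whereas both HCN genes lie inside it.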

How the data were processed

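The deposited table holds 33012 probes of linear intensity on 10 arrays, with 0 values at or below 0. Per the labels, the targets were cRNA labelled with digoxigenin and read by chemiluminescence; how the authors corrected, scaled or flagged the intensity values is not given in the sources used here. The number of arrays limits the precision. Groups and replicate numbers came from the titles. Values were put on the log2 scale and quantile-normalized. The fit used limma 3.58.1 under R 4.3.3 (retina minus cortex by lmFit, eBayes with intensity trend, no covariates), tested on simulated data; SE is limma's. Pairs of probes were compared with exact permutation tests (scipy 1.17.1). All 5 probes were matched to RefSeq by Entrez ID. The probe with the highest mean stood for a gene of a list. The members, lists and motifs were chosen with earlier results of these data known. Named genes are all channel probes and all measured members of the partner, olfactory, HCN and photoreceptor channel lists. Up to 4 called members of other lists by size, and the 3 genes of most similar pattern, are also named. Gucy2e, Gucy2f, Guca1b, Gnb3, Rapgef3 and Prkar1b were added after their values were seen. Alternatives covered scaling, dim values, the variance model, the call rule, the replicate number as a block and single arrays.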

Additional observations from a re-analysis of the deposited data

Results flagged for a closer look

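No array of a channel probe stood apart from the other 4 of its tissue by Dixon's 95% critical value. Among the other named genes that were looked at 5 values did, of 88 sets of 5 arrays in all, where chance flags about 1 in 20. Prph2 had 10.96 log2 units on cortex array 3, while the remaining 4 lay between 8.78 and 8.91. Slc24a1 had 17.18 log2 units on retina array 2, while the remaining 4 lay between 17.40 and 17.48. The same gene had 8.75 on cortex array 5, with the remaining 4 between 9.25 and 9.41. Ano2 had 7.82 log2 units on cortex array 1, while the remaining 4 lay between 7.34 and 7.44. Prkar2b had 11.55 log2 units on retina array 3, while the remaining 4 lay between 11.98 and 12.13.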

How the results depend on the processing

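The calls of Cnga1, Cngb1 and Cngb3 held under every alternative listed above. Cnga3 lost its call only with dim values raised to the olfactory receptor level (0.75). Cnga2 gained a call without normalization (-1.30, or -0.89 relative to the median of all probes) and ranged from -1.20 to -0.62 on leaving out single arrays; it was not tested with dim probes left out, and the number of channel genes called lower was then 0 to 1 over single arrays and 1 without normalization. Of the pairs, only Cnga1 minus Cngb1 changed its call, to -1.59 with the dim values raised, a setting that removes the cortex differences by construction. Over all probes 3987 were called higher and 4392 lower, against 2474 and 7621 without normalization; 4882 were called with dim values raised, against 8379. With dim values raised every value of Kcnh3 was replaced, so its 0.07 there is the difference of the raised levels alone. For same-numbered arrays, the deviations from the tissue means had correlations across probes of -0.02 to 0.029. Of the 5 retina arrays, 3 were best matched by their own number. Whether same-numbered arrays share a run was not tested. With the replicate number as a block, 8398 probes were called and the differences of the channel probes kept their values (10.62, 10.55, 5.60, 3.73 and -0.88) and calls. For the pairs, the block leaves 5 differences whose smallest exact permutation p is 0.0625, so it gives no test at 0.05.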

Other observations

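Other proteins that bind cyclic nucleotides were looked at as well. Of 11 measured genes of 13 listed for kinases, exchange factors and Popeye proteins, 3 were called higher in retina, 2 lower and 6 were not called (median difference 0.32 log2 units), where 12.1% of all probes were called higher and 13.3% lower. The count of lower genes was 1 with dim values raised, without the intensity trend and on leaving out any of 7 single arrays. Rapgef3 (-1.09, SE 0.419), dim and overlapping between the tissues, then lost its call. The count was 3 without normalization and with centring on the array 75th percentile, where Prkar1b (-0.85) was also called lower (-1.42 and -1.04). In those settings 7621 and 4760 of all 33012 probes were called lower. Tested against a 1.5-fold difference, Prkar1b was called lower as well and Rapgef3 was not, where 4308 of all probes were called lower. Prkar2b, a regulatory subunit of the cAMP-dependent kinase, averaged 11.96 ± 0.24 over retina arrays and 14.84 ± 0.12 over cortex arrays (SD, n = 5 each), a difference of -2.88 (SE 0.0984, limma adjusted p = 1.32e-13). Bves (3.25, SE 0.351) and Popdc3 (2.29, SE 0.204), which encode cAMP-binding Popeye membrane proteins, were higher, as was the cGMP-dependent kinase gene Prkg2 (1.38, SE 0.253). With dim values raised Bves was at 1.54, Popdc3 at 0.90 and Prkg2 at 0.26.

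KCNH potassium channels carry a domain related to the nucleotide-binding domain of CNG channels but are not known to be gated by cyclic nucleotides. Of 5 measured genes of 8 listed, 2 were called higher in retina, 1 lower and 2 were not called (median difference -0.17), beside the same 12.1% and 13.3% of all probes. Kcnh2 averaged 12.47 ± 0.12 over retina arrays and 9.47 ± 0.36 over cortex arrays (SD, n = 5 each), a difference of 3.00 (SE 0.176). Its cortex values were dim, and with the dim values raised it was at 1.64. Kcnh5 was higher by 1.29 (SE 0.117) on one probe and by 1.15 (SE 0.385) on the other, and at 0.83 on the brighter probe without normalization. Kcnh3 was called lower (-1.47, SE 0.413) from values that were dim in both tissues, and its retina array 1, at 9.85, was above 3 of the 5 cortex arrays.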
